A study of Mus musculus with 4 samples.

Results

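The unfolded protein response and ER folding genes examined here were 32 genes, taken by symbol from a list of the pathway's genes, and all 32 were among the 16218 genes of the deposited count table. They were measured by RNA-seq in 4 thyroids from the NOD.H-2h4 strain, which is used to study autoimmune thyroid disease. Both groups received antibody 3 times per week for 2 weeks, after which the thyroid was taken. The control group (IgG, 2 libraries) received isotype control IgG and the treated group (anti-PD-L1, 2 libraries) received a monoclonal antibody against PD-L1, a surface protein that restrains T cells through PD-1. The libraries are called control 1 and control 2 (IgG replicates 1 and 2) and treated 1 and treated 2 (anti-PD-L1 replicates 1 and 2). The labels give a different antibody clone string for each library in a batch field, so batch and treatment cannot be told apart by a fitted term. Age, sex and pooling of animals were not given in the labels used here. Nothing in the labels beyond the mouse in each title says how the samples of a group were separated, so p-values measure only the spread between these samples.

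The endoplasmic reticulum (ER) folds and glycosylates secreted proteins, and thyroid follicular cells depend on it to make thyroglobulin, a large disulfide-bonded protein that must fold before it can serve as the precursor of thyroid hormone. Unfolded protein in the ER is sensed by IRE1, ATF6 and PERK. IRE1 (gene Ern1) splices the mRNA of the transcription factor XBP1, ATF6 is cut to release a transcription factor, and PERK (gene Eif2ak3) phosphorylates eIF2, which favours translation of ATF4. Their targets include chaperones, genes of ER-associated degradation (ERAD, which exports misfolded proteins for destruction) and, downstream of ATF4, amino acid and stress genes. Gene-level counts of poly(A) RNA show neither XBP1 splicing nor phosphorylation of PERK or eIF2.

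Short motifs that these factors can bind were searched in the RefSeq promoter windows (build GRCm38.p6, 250 bases before to 50 bases after the start site, both strands), which were found for 29 of the 32 genes. The ER stress element (CCAAT and CCACG with 9 bases of any kind between them) was matched in 8 of the 29 windows (27.6%), against 39 of all 32851 windows (0.119%). Of these windows, 7 belonged to the 12 chaperones with a window (58.3%) and the other to Syvn1 of ERAD. The 39 include these 8, and the members were taken from a list of the pathway's genes, so the difference in share is descriptive and not a test. Hsp90b1 had 2 sites. These sites are shown as background to the chaperones, which varied together between libraries with or without a match. Pdia3, Pdia4, Dnajb9, Dnajb11 and Sdf2l1 had a window but no match, and they varied with the other chaperones. Syvn1, with a match, was lower in control 1 than in control 2, opposite to every chaperone. The capitals mark the matched stretch with its spacer, and 8 flanking bases are in lower case.
Hspa5, chr2:34772017-34772051, plus strand: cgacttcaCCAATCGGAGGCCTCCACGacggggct
Hsp90b1, chr10:86705525-86705559, plus strand: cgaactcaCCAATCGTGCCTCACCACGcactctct
Hsp90b1, chr10:86705630-86705664, minus strand: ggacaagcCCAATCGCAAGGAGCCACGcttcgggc
Calr, chr8:84847067-84847101, plus strand: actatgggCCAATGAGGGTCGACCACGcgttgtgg
Canx, chr11:50325792-50325826, minus strand: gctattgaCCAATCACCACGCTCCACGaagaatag
Pdia6, chr12:17266483-17266517, plus strand: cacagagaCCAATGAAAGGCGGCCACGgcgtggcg
Dnajc3, chr14:118937819-118937853, plus strand: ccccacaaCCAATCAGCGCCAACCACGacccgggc
Creld2, chr15:88819512-88819546, minus strand: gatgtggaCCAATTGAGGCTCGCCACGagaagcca
Syvn1, chr19:6046524-6046558, plus strand: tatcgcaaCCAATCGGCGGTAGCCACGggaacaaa

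The C/EBP-ATF element, TTGCATCA, which ATF4 and CHOP dimers can bind, was matched in 3 of the 29 windows (10.3%) against 0.895% of all windows. The 3 genes were Atf3, Chac1 and Herpud1. All 3 were highest in treated 1 (anti-PD-L1 replicate 1), as were 5 members without a match (Xbp1, Atf4, Ddit3, Ppp1r15a and Edem2) and 30.7% of all genes. The capitals mark the match.
Atf3, chr1:191183428-191183451, minus strand: tctcgcacTTGCATCAccaagtcc
Chac1, chr2:119351041-119351064, plus strand: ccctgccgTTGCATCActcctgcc
Herpud1, chr8:94386309-94386332, plus strand: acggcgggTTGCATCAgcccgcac
The core TGACGTG, bound by XBP1, was matched in 1 member window, that of Hspa5, and in 2.01% of all windows. The whole Hspa5 window carries this core and the ER stress element, which do not overlap and stand in capitals.
Hspa5, chr2:34771840-34772139, plus strand: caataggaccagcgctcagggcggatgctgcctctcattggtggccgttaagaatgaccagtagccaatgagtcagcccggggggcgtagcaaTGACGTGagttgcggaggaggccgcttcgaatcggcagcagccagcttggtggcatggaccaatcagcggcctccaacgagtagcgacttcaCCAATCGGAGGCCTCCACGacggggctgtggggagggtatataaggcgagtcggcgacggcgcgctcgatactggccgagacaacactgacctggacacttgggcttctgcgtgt
A match is a description of letters and not evidence of binding in these samples.

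Total counts were 75591923 to 79663374.5 per library. The 32 members held a share of 0.774% in control 1, 0.524% in control 2, 0.608% in treated 1 and 1.03% in treated 2, and no member had fewer than 475 counts in any library. Levels are TMM-normalised counts scaled to a common library size (CPM), and differences are log2 fold changes, anti-PD-L1 minus IgG, with their standard error (SE, n = 2 per group). Treated 2 stood apart in squamous epithelium markers, as given below with the cell type markers. Treated 1 stood apart from the other 3 libraries in Tg, the thyroglobulin gene, and in 2 sex-linked genes. Tg took 4.34% of the counts of treated 1 against 14.6% to 16.9% in the others. The level of Xist in treated 1 was 1.40 CPM against 67.7 to 72.7, and that of Ddx3y, on the Y chromosome, was 62.6 CPM against 0.350 to 0.790. These 2 levels are those of a male thyroid in treated 1 and of female thyroids in the other 3 libraries. In treated 1, sex and anything else particular to that library cannot be told apart. Results that rest on that library are therefore given without it as well. In whole tissue, fewer cells of a type and less RNA per cell cannot be told apart.

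No member passed the threshold in the comparison of the groups by edgeR's quasi-likelihood test (adjusted p under 0.05 over 16217 genes), in which 0 genes (0%) were called in either direction. At an unadjusted p under 0.05, 2 members were higher (6.25%, against 4.96% of all genes) and 0 lower (against 1.10%). Both were ERAD genes, Edem1 and Edem2. DESeq2 called 1 member higher, Edem1, and 0 lower, against 2.93% and 0.327% of all genes. Both treated libraries lay above both controls for 7 members (21.9%, against 16.5% of all genes) and below for 0 (against 13.1%). These 7 were Dnajb9, Xbp1, Atf6, Chac1, Edem1, Edem2 and Edem3. The members' shares of calls were thus near the background. The log2 fold change was above 0 for 28 of 32 members (87.5%, against 8114 of 16217 genes), with a median of 0.24 against 0.00021 over all genes. That median was −0.026 without treated 2 and 0.36 without treated 1.

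**Figure D1:**
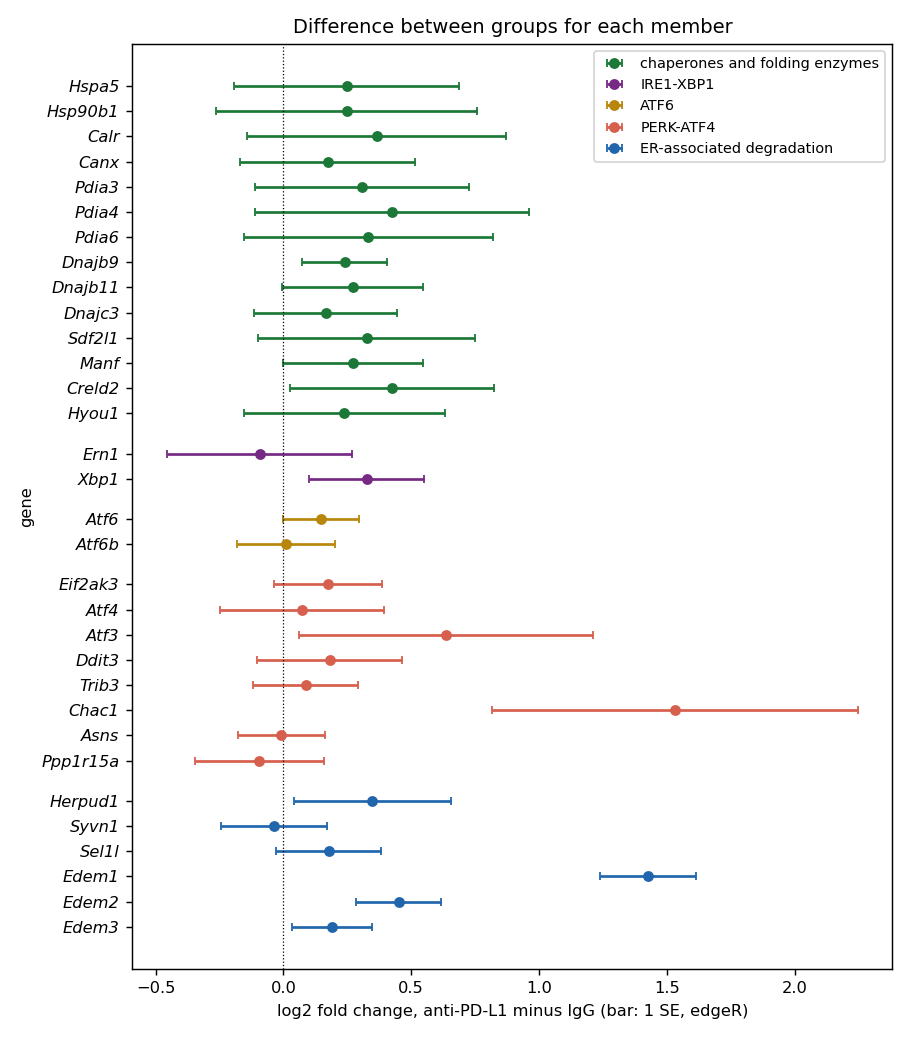
Log2 fold change of each of the 32 members (x axis, anti-PD-L1 minus IgG, points with bars of 1 SE from edgeR), grouped by arm. Edem1 stands at 1.43 with a narrow bar and Chac1 at 1.53 with a wide one, while the other 30 members lie between −0.095 and 0.64.

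Of the 14 ER chaperones and folding enzymes, 13 overlapped between the groups, as did 11418 of all 16217 genes. The 14 varied together between the libraries of each group. All 14 were highest in treated 2 (against 5104 of 16217 genes) and 12 of 14 were lowest in control 2 (against 2810). The exceptions were Dnajc3 and Hyou1, which were lowest in treated 1. Hspa5, which encodes BiP, the main ER chaperone and a repressor of the 3 sensors, had 998 and 657 CPM in the controls and 709 and 1254 CPM in the treated libraries. The ranges of the groups overlapped, and the log2 fold change was 0.25 ± 0.44 (edgeR adjusted p = 1). Hsp90b1, the gene of the ER HSP90 called GRP94, had 1136 and 646 CPM against 712 and 1404 CPM. Its order of libraries was that of Hspa5.

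The lectin chaperones, which hold newly glycosylated proteins, had the same order. Calr, the gene of calreticulin, had 1494 and 867 CPM against 1052 and 1987 CPM, the highest level per length of any member (469 CPM per kb of exon, mean of the 4 libraries). Canx, the gene of the membrane-bound calnexin, had 360 and 251 CPM against 273 and 417 CPM. Per kb of exon, Pdia3 (264), Hsp90b1 (242) and Hspa5 (214) followed Calr, and the means of these 3 lay closer together than each gene's own libraries did.

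The protein disulfide isomerases form and rearrange disulfide bonds, and their libraries stood in the same order. Pdia4 had 264 and 149 CPM against 165 and 389 CPM, the widest range among the chaperones at 2.62-fold from the lowest to the highest library. Pdia3, which works with calreticulin and calnexin, had 895 and 584 CPM against 687 and 1143 CPM, and Pdia6 had 563 and 332 CPM against 372 and 754 CPM. All 3 had overlapping groups, with log2 fold changes of 0.42 ± 0.54, 0.31 ± 0.42 and 0.33 ± 0.49.

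The co-chaperones and small secreted stress proteins followed. Sdf2l1, part of a complex with BiP and ERdj3, had 185 and 104 CPM against 132 and 229 CPM, and Creld2, a secreted ER stress protein, had 74.9 and 42.6 CPM against 58.7 and 99.1 CPM. Manf, a secreted stress-induced factor, had 202 and 140 CPM against 185 and 228 CPM, and Hyou1, the nucleotide exchange factor of BiP, had 149 and 107 CPM against 104 and 199 CPM. Dnajb11, the gene of ERdj3, had 75.9 and 55.6 CPM against 64.6 and 94.1 CPM, and Dnajc3, the gene of the co-chaperone p58IPK, had 207 and 178 CPM against 173 and 259 CPM. In each of these 6 genes the treated libraries lay on either side of control 1. Dnajb9, the gene of the BiP co-chaperone ERdj4 and a target of XBP1, was the exception. It had 91.3 and 88.5 CPM against 99.5 and 113 CPM, so its groups did not overlap, and the difference was 0.24 ± 0.17 on the log2 scale (edgeR adjusted p = 1).

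Within the IgG group all 14 chaperones were higher in replicate 1 than in replicate 2, by a median of 1.53-fold (range 1.03 for Dnajb9 to 1.78 for Sdf2l1). Within the anti-PD-L1 group all 14 were higher in replicate 2 than in replicate 1, by a median of 1.71-fold (1.13 for Dnajb9 to 2.36 for Pdia4). Over all genes, 27.0% had both of these orders. The medians over all genes were −0.00011 and −0.0086 on the log2 scale, against 0.61 and 0.77 for the chaperones. Between the groups the median of the 14 was a log2 fold change of 0.27, and it was 0.63 without treated 1 and −0.17 without treated 2. The median difference within each group was therefore larger than the median difference between them.

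**Figure D2:**
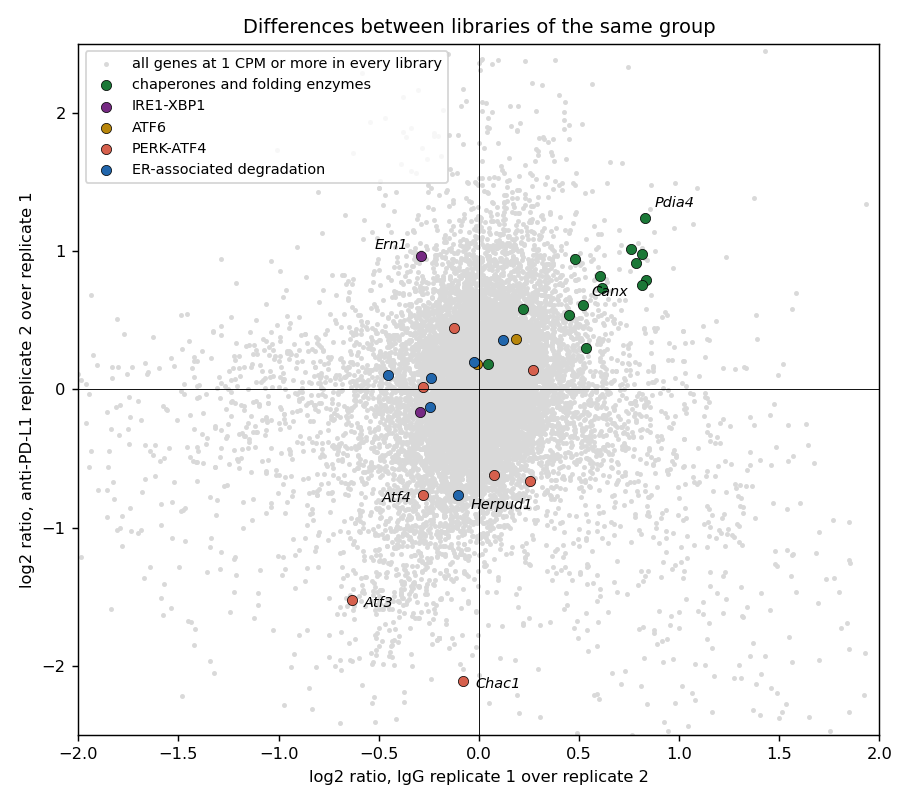
Log2 ratio of IgG replicate 1 over replicate 2 (x axis) and of anti-PD-L1 replicate 2 over replicate 1 (y axis) for the members, coloured by arm, and for all genes with at least 1 CPM in every library (grey; points beyond the axes are not drawn). All 14 chaperones lie in the upper right, while Chac1, Atf3, Atf4 and Herpud1 lie in the lower part.

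Several cell type markers differed between the same libraries. Summed CPM of the 14 chaperones was 6697 and 4202 in the controls and 4787 and 8570 in the treated libraries. The 12 thyroid follicular markers, all detected, summed to 155655 and 150262 against 46048 and 167048 CPM, most of it Tg. Without Tg the other 11 summed to 2886 and 1730 against 1381 and 4560 CPM, and 11 of the 12 were higher in both control 1 and treated 2 than in the other library of their group. Of 8 adipocyte markers, 7 had these 2 orders as well (87.5%, against 27.0% of all genes). Of the 8, 6 were highest in treated 2 and 8 were lowest in treated 1, against 5104 and 4974 of 16217 genes. The 19 detected mucosal gland markers ran the other way, with 5122 and 26635 CPM against 42621 and 13115 CPM. The 12 skeletal muscle markers had 38994 and 51433 against 64556 and 23718 CPM. The 11 squamous epithelium markers had 11396 and 3028 against 4674 and 74.9 CPM. All 11 were lowest in treated 2, against 5236 of 16217 genes. Relative to the follicular markers with Tg the chaperones amounted to 4.30% and 2.80% in the controls, 10.4% in treated 1 and 5.13% in treated 2. These shares mostly follow Tg. Relative to the other 11 markers the ratio was highest in treated 1 and lowest in treated 2, so the groups overlapped. The part of tissue makeup in the chaperone levels was not tested.

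**Figure D3:**
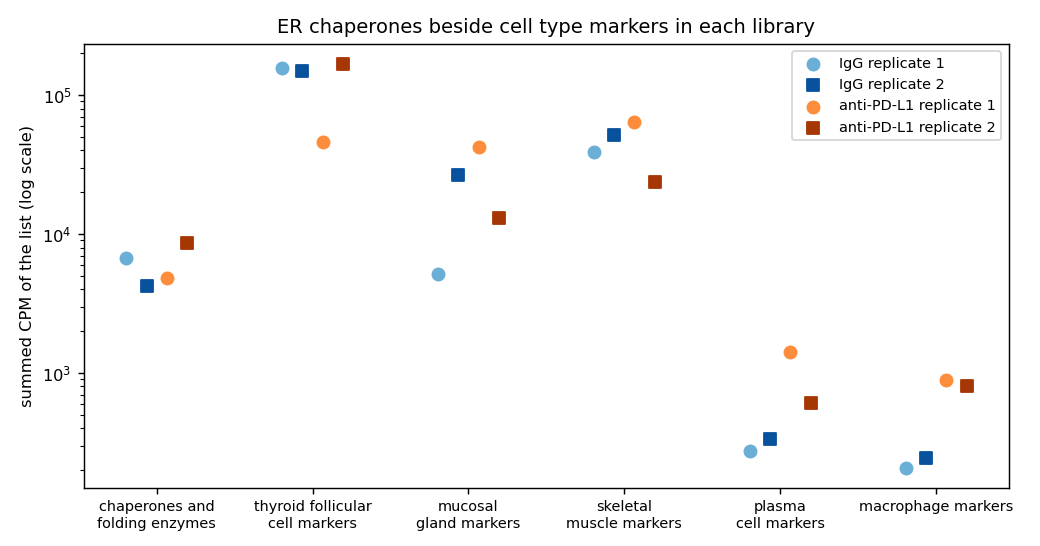
Summed CPM (log scale) of the 14 chaperones and of 5 marker lists in each of the 4 libraries. Anti-PD-L1 replicate 1 is lowest for follicular markers (46048 CPM) and highest for mucosal gland markers (42621 CPM), while macrophage markers separate the groups.

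Of the IRE1 arm, Xbp1 had both treated libraries above both controls and Ern1 did not. Xbp1, the transcription factor that drives ER expansion in secretory and plasma cells, had 198 and 243 CPM in the controls against 292 and 261 CPM. The gap between the groups was small beside the difference between the controls, and the log2 fold change was 0.33 ± 0.22 (edgeR adjusted p = 1). Of 10 detected plasma cell markers, 7 also had both treated libraries higher (70%, against 16.5% of all genes). Their sums were 274 and 337 CPM against 1411 and 608 CPM, most of the difference being Jchain, the immunoglobulin joining chain gene, with 16.4 and 164 CPM against 1142 and 443 CPM. Without Jchain the other 9 summed to 258 and 172 against 269 and 165 CPM, and the groups overlapped. Sdc1, the largest of the 9 in the controls and treated 1, had 176 and 83.6 against 103 and 21.7 CPM. Of the 9, Mzb1, Irf4, Pou2af1, Fcrl5, Tnfrsf13b and Eaf2 had both treated libraries higher, while Derl3, Sdc1 and Prdm1 overlapped. No marker of the list was at 0 in any library, and the part of plasma cells in the Xbp1 level was not tested. Ern1, the gene of the sensor itself, had 33.7 and 41.3 CPM against 23.8 and 46.5 CPM, with the lowest and the highest value both in the anti-PD-L1 group. Its log2 fold change was −0.093 ± 0.36, and 0.31 without treated 1.

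The 2 ATF6 genes varied little between libraries. Atf6 had 54.3 and 54.7 CPM against 56.6 and 64.2 CPM, a range of 1.18-fold over the 4 libraries and the narrowest of any member. Atf6b, its paralog, had 50.8 and 44.7 CPM against 42.0 and 54.2 CPM, a range of 1.29-fold. Their log2 fold changes were 0.15 ± 0.15 and 0.0099 ± 0.19, neither past the threshold (edgeR adjusted p = 1 for both).

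In the PERK-ATF4 arm 5 of 8 genes were highest in treated 1 (62.5%, against 30.7% of all genes), Chac1 and Atf3 by the widest margins. The arm was not alone in this. Of the stress kinases and eIF2 genes described below 71.4% were highest in treated 1, and of the ER translocation and N-glycosylation genes 53.1%. Chac1, which encodes an enzyme that degrades glutathione and is a target of ATF4 and CHOP, had 19.9 and 20.98 CPM in the controls, 95.9 CPM in treated 1 and 22.2 CPM in treated 2. The first treated library was 4.33-fold above the second, and the other 3 libraries were alike. The log2 fold change of 1.53 ± 0.72 (edgeR adjusted p = 1, DESeq2 adjusted p = 0.387) was 0.12 without treated 1 and 2.22 without treated 2.

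Atf3, a stress-induced transcription factor, had 5.94 and 9.22 CPM against 17.5 and 6.08 CPM. Atf4, the central factor of the arm, had 125 and 152 CPM against 183 and 108 CPM, with the highest and the lowest value in the anti-PD-L1 group. Ddit3, the gene of CHOP, had 14.2 and 11.9 CPM against 18.1 and 11.4 CPM, in the same order of the treated libraries. Ppp1r15a, the gene of GADD34, which directs the removal of phosphate from eIF2, had 24.4 and 23.1 CPM against 26.9 and 17.6 CPM. In these 5 genes treated 1 was the highest of the 4 libraries, and without it the log2 fold changes of Atf3, Atf4 and Ddit3 were −0.32, −0.36 and −0.19.

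The other members of the arm did not share this. Asns, asparagine synthetase and a standard ATF4 target, had 22.9 and 27.8 CPM against 25.1 and 25.4 CPM, and Trib3, a pseudokinase induced by ATF4 and CHOP, had 8.77 and 7.26 CPM against 8.10 and 8.92 CPM. Both treated libraries lay within or near the IgG range for each gene. Eif2ak3, the gene of PERK, had 18.2 and 19.8 CPM against 18.1 and 24.7 CPM, highest in treated 2. The median log2 fold change of the 8 genes was 0.13, and −0.094 without treated 1.

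**Figure D4:**
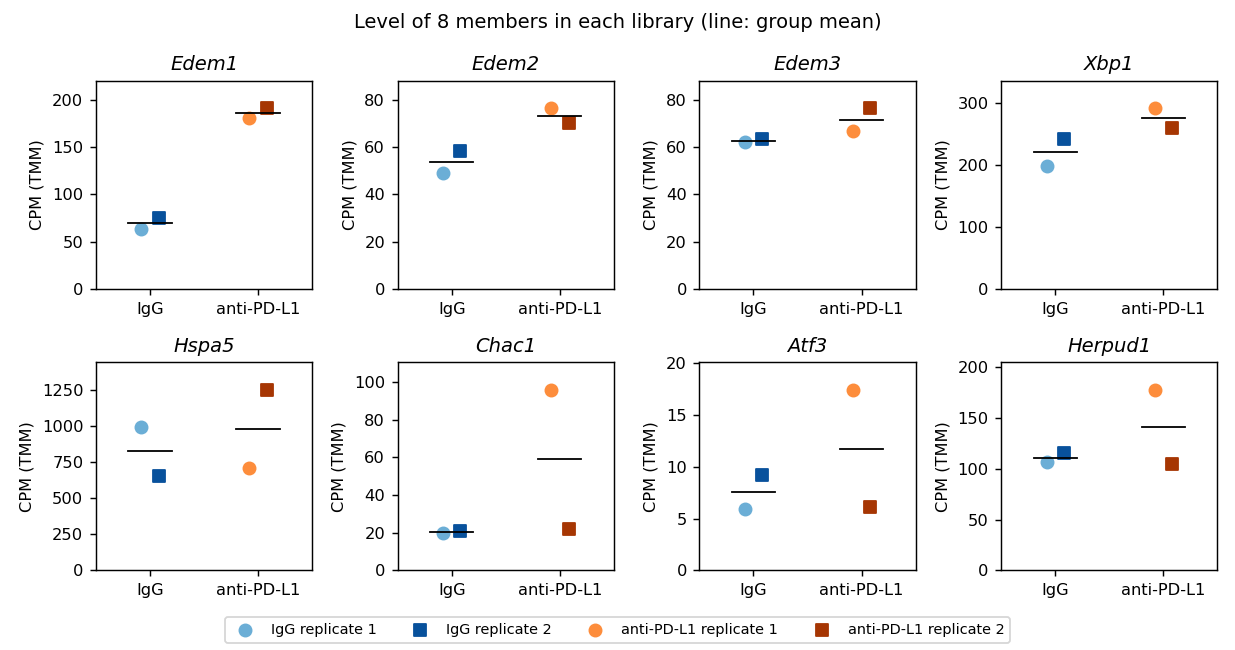
CPM (y axis, from 0) of 8 members in each library, with a line at each group mean. Both anti-PD-L1 points of Edem1 (181 and 191 CPM) are far above both IgG points, Hspa5 overlaps between the groups, and Chac1, Atf3 and Herpud1 have 1 high point, anti-PD-L1 replicate 1.

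Edem1 was the member that differed most clearly between the groups. It encodes a mannosidase-like lectin that marks misfolded glycoproteins for ERAD, and it lies on chromosome 6 from 108828641 to 108859356 (GRCm38, plus strand, identifier ENSMUSG00000030104.9), with no exon of another annotated gene over its exons. It had 63.6 and 75.0 CPM in the controls and 181 and 191 CPM in the treated libraries. The groups did not overlap, and the lower treated library was 2.41-fold above the higher control. The log2 fold change was 1.43 ± 0.19, a 2.69-fold difference (edgeR unadjusted p = 0.0011, adjusted p = 0.179, DESeq2 adjusted p = 1.46e-08). It ranked 100 of 16217 genes by p. Leaving out 1 library at a time gave log2 fold changes of 1.29 to 1.55. The DESeq2 call was lost without control 1 (adjusted p = 0.113) and held without each of the other 3.

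The paralogs of Edem1 had smaller differences in the same direction. Edem2 had 49.2 and 58.3 CPM against 76.6 and 70.2 CPM, with groups that did not overlap and a difference of 0.45 ± 0.17 on the log2 scale (edgeR unadjusted p = 0.0484, adjusted p = 0.815). Edem3 had 62.2 and 63.4 CPM against 66.7 and 76.6 CPM, with a log2 fold change of 0.19 ± 0.16. Whether Edem1 differs from Edem2 and Edem3 in its response was not tested. Macrophage and T cell markers also separated the groups. The 10 macrophage markers summed to 209 and 244 CPM against 884 and 805 CPM, with C1qa at 55.8 and 76.0 against 316 and 272 CPM. The 10 T cell markers summed to 29.8 and 56.1 CPM against 161 and 162 CPM, with Lck at 8.93 and 12.99 against 28.5 and 34.9 CPM. Both treated libraries were higher for 9 of 10 macrophage markers and 10 of 10 T cell markers, against 16.5% of all genes. No marker of either list was at 0 in any library, and the part of these cells in the Edem1 level was not tested.

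The remaining ERAD members did not follow Edem1. Herpud1, an ER membrane protein that assembles the degradation complex, had 107 and 115 CPM against 178 and 105 CPM, so the high level was that of treated 1 alone, as for Chac1. Its log2 fold change was 0.35 ± 0.31, and −0.084 without that library. Syvn1, the gene of the ubiquitin ligase HRD1, had 42.0 and 57.7 CPM against 46.9 and 50.3 CPM, both treated libraries within the IgG range. Sel1l, the partner of HRD1, had 118 and 109 CPM against 113 and 144 CPM. Their log2 fold changes were −0.037 ± 0.21 and 0.18 ± 0.21, neither past the threshold.

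**Figure D5:**
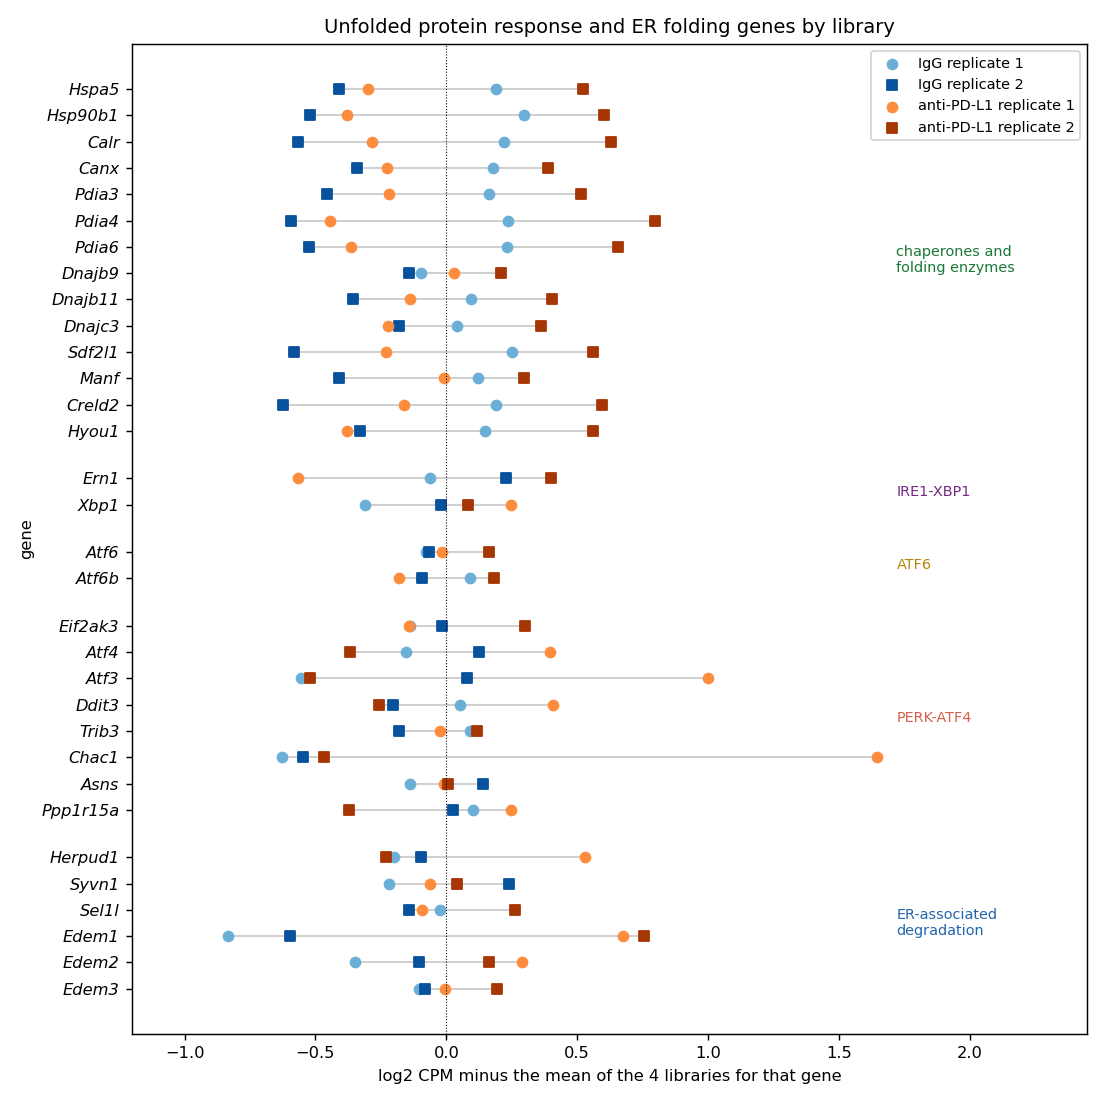
Log2 CPM of each member minus its mean over the 4 libraries (x axis), with 1 point per library, grouped by arm. For the 14 chaperones the highest point is anti-PD-L1 replicate 2 (dark squares) in every row, while for Chac1, Atf3 and Herpud1 it is anti-PD-L1 replicate 1.

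Other genes of the same and related stress pathways, 187 in all, were looked at by list, and none was called by edgeR. DESeq2 called 1 of the 187 higher, Ddit4, against 2.93% of all genes. The counts of genes with both treated libraries higher or lower are to be read against 16.5% and 13.1% of all genes. Of 36 other ER folding and oxidation enzymes, 9 had both treated libraries higher (25%) and 0 lower, the median log2 fold change was 0.13 (−0.024 without treated 2) and 0 had an unadjusted p under 0.05. Erp29, Fkbp11 and Mogs, the last a glucosidase that trims new N-glycans, had the smallest p in this list, with log2 fold changes of 0.30 ± 0.16, 0.30 ± 0.18 and 0.21 ± 0.13. Of these 36 genes, 26 had the same 2 within-group orders as the chaperones (72.2%, against 27.0% of all genes). In treated 2, 31 of the 36 were highest, against 5104 of 16217 genes. Of 32 genes of translocation into the ER and N-glycosylation, 8 had both treated libraries higher (25%) and 0 lower, with a median of 0.14 (0.074 without control 2), and 15 had both within-group orders. Krtcap2, Ssr2 and Sec11c had the smallest p, with 0.30 ± 0.19, 0.23 ± 0.15 and 0.31 ± 0.22. Krtcap2 was 0.085 without treated 1, and Sec11c was 0.066 without treated 2.

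Of 30 other ERAD genes, 8 had both treated libraries higher (26.7%) and 1 lower, with a median of 0.079 (0.024 without treated 2). Ube2j1, a ubiquitin-conjugating enzyme of the ER membrane that works with HRD1, was the 1 of these at an unadjusted p under 0.05, with 44.9 and 44.0 CPM against 63.6 and 58.8 CPM, a difference of 0.46 ± 0.14 on the log2 scale (edgeR adjusted p = 0.592). Aup1 and Selenos followed, both at 0.21 ± 0.16, and without treated 1 they were 0.10 and 0.079. Of 39 other ATF4 and CHOP targets, 8 had both treated libraries higher (20.5%) and 4 lower, with a median of 0.040 (−0.092 without treated 1), and 2 had an unadjusted p under 0.05, Ddit4 and Mthfd2. Ddit4, an inhibitor of mTORC1, differed by 0.75 ± 0.16 on the log2 scale (edgeR adjusted p = 0.322, DESeq2 adjusted p = 0.0244), Mthfd2, a mitochondrial folate enzyme, 0.74 ± 0.24, and Wars, a tRNA synthetase, 0.42 ± 0.17. Mthfd2 was 0.46 without treated 1, and Wars was 0.26 without treated 2. In this list 15 of 39 genes were highest in treated 1 (38.5%), against 30.7% of all genes.

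The 14 stress kinases and eIF2 genes had a median of 0.089 (0.030 without treated 1), and 5 had both treated libraries higher (35.7%) and 0 lower. Eif2ak2, the gene of the interferon-inducible kinase PKR, had 30.5 and 27.1 CPM against 35.3 and 57.3 CPM, with Eif2ak1 and Dnajc7 next at 0.17 ± 0.14 and 0.18 ± 0.16. The difference of Eif2ak2 was 0.28 on the log2 scale without treated 2 and that of Dnajc7 was 0.063 without treated 1. The 18 other sensors and ER membrane factors had a median of 0.096 (−0.014 without control 1), with 6 higher (33.3%) and 3 lower in both treated libraries, led by Bak1, Creb3 and Bax at 0.38 ± 0.18, 0.26 ± 0.13 and 0.24 ± 0.15. In edgeR none of the genes in these lists passed the threshold (adjusted p of 0.322 or more).

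The promoter matches were also looked at outside the members. Of 19 tested genes with an ER stress element in a window, 11 were not members, and 4 of those 11 (36.4%) had both within-group orders of the chaperones, against 27.0% of all genes. The 11 had a median log2 ratio of 0.013 within the IgG group and 0.10 within the anti-PD-L1 group. Of 104 tested genes with the C/EBP-ATF element that were not members, 37 were highest in treated 1 (35.6%, against 30.7% of all genes). Their median log2 ratio of treated 2 over treated 1 was −0.16, against −0.0086 over all genes. Both counts were near the background.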

How the data were processed

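Poly(A)-selected RNA of 4 thyroids was sequenced as paired-end reads. The submitters' processing notes name BWA and mm10 without a role. How reads were counted, on which annotation and strand, is not stated there. The authors deposited expected counts per gene symbol, not normalised, for 16218 genes. Every gene reached 100 counts in at least 1 library, 20.5% of genes held a count ending in 0.5, and 13 blank cells were read as 0.

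Counts were rounded and tested with edgeR 4.0.16 in R 4.3.3 (filterByExpr, TMM, two-sided robust quasi-likelihood F test with group as the only term, Benjamini-Hochberg over 16217 genes, threshold 0.05). Each SE was obtained from the fold change and its F statistic, as |log2 fold change| over √F. With 2 libraries per group an exact permutation p cannot go below 0.333. DESeq2 1.42.0 and limma 3.58.1 were alternatives, beside other scalings, filters, the replicate block and each library left out. The edgeR and DESeq2 steps were tested on simulated data. Exon lengths and overlaps came from GENCODE M21. Exons of other genes overlap those of Hsp90b1, Manf, Eif2ak3, Syvn1 and Ddit3 by at least 81 bases, so some of their reads are uncertain. The members and lists were chosen with earlier results of these data known. The text names all members, the 3 genes of smallest p in each pathway list and the most abundant gene of each marker list. Outside that rule it names the other 9 detected plasma cell markers and Xist and Ddx3y. A few others, marked as such, were picked later from their values.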

Additional observations from a re-analysis of the deposited data

How the results depend on the processing

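Under the scaling, filter and test alternatives and the replicate block, no log2 fold change of a member changed sign except those of Asns and Atf6b. Asns was 0.014 with plain library totals. Atf6b was −0.00065 with RLE scaling, −0.0026 with upper-quartile scaling, −0.0046 with Tg left out and −0.00063 with DESeq2. Leaving out single libraries turned the sign of 24 members, whose log2 fold changes then ranged as follows: Asns −0.16 to 0.14, Atf3 −0.32 to 1.19, Atf4 −0.36 to 0.39, Atf6b −0.20 to 0.18, Calr −0.18 to 0.79, Canx −0.18 to 0.45, Creld2 −0.012 to 0.87, Ddit3 −0.19 to 0.46, Dnajb11 −0.036 to 0.52, Dnajc3 −0.17 to 0.43, Eif2ak3 −0.078 to 0.38, Ern1 −0.67 to 0.31, Herpud1 −0.084 to 0.67, Hsp90b1 −0.33 to 0.69, Hspa5 −0.23 to 0.60, Hyou1 −0.32 to 0.63, Pdia3 −0.12 to 0.63, Pdia4 −0.33 to 0.92, Pdia6 −0.28 to 0.75, Ppp1r15a −0.44 to 0.17, Sdf2l1 −0.13 to 0.78, Sel1l −0.023 to 0.34, Syvn1 −0.27 to 0.21, Trib3 −0.043 to 0.21. Among the marker genes the ranges were Acta1 −0.95 to 0.60, Cd79a −0.057 to 3.74, Cfd −1.33 to 0.49, Col3a1 −0.60 to 0.64, Ltf −0.0052 to 2.04, Pth −0.14 to 1.41, Tg −1.77 to 0.11, and Acta1 was −0.13 with limma voom and −0.15 with the replicate block. Medians ranged, with single libraries left out, as follows: ATF6 −0.078 to 0.21, ER-associated degradation 0.25 to 0.31, IRE1-XBP1 −0.14 to 0.28, PERK-ATF4 −0.094 to 0.28, all members −0.026 to 0.36, chaperones and folding enzymes −0.17 to 0.63. The count of members with both treated libraries above both controls was 7 under every scaling and 10 to 25 with 1 library left out, where fewer libraries are compared. edgeR called 0 genes under each scaling, filter, block and left-out library, and limma voom, run once on all 4 libraries, called 0, with 804 higher and 178 lower at an unadjusted p under 0.05 in edgeR and 739 and 321 under the replicate block, while DESeq2 called 475 higher and 53 lower. DESeq2 called 1 member, 0 without control 1, 1 without control 2 or treated 1 and 3 (Chac1, Edem1 and Herpud1) without treated 2, fits added after seeing the data. With the replicate block Edem1 was 1.43 (edgeR adjusted p = 0.258), and samples with the same number deviated together with r = 0.0998 across genes, so the numbers were not taken to pair them. The causes of these changes were not tested. At 3 counts, or 0.0377 to 0.0397 CPM, depth limits no member.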

Other observations

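Cytosolic heat shock genes, which belong to a separate stress response outside the ER, did not follow the ER chaperones. Of 19 genes, 3 had both within-group orders of the chaperones (15.8%, against 27.0% of all genes). In treated 2, 15 of the 19 were lowest, against 5236 of 16217 genes. Between the groups, 1 had both treated libraries above both controls (5.26%, against 7.14% of the chaperones and 16.5% of all genes) and 4 below (against 13.1%). The median log2 fold change was −0.057 and 0 had an unadjusted p under 0.05. Dnaja1, a co-chaperone of HSP70, had 106 and 118 CPM against 144 and 134 CPM. The inducible HSP70 genes Hspa1b (61.2 and 54.6 against 57.8 and 32.2 CPM) and Hspa1a (32.1 and 34.2 against 33.1 and 23.2 CPM) were lowest in treated 2, the library in which every ER chaperone was highest. Reads of this pair of almost identical genes may have been split between them, which makes each level uncertain.

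Fgf21 and Nupr1, chosen after their values were seen, stood high in treated 1 with Chac1 and Atf3. They come from the 39 other ATF4 and CHOP targets, of which 15 were highest in treated 1 (38.5%, against 30.7% of all genes). Fgf21, a stress hormone induced by ATF4, had 15.3 and 14.8 CPM in the controls, 37.4 CPM in treated 1 and 7.74 CPM in treated 2. Nupr1, a stress-induced nuclear protein, had 30.3 and 87.7 CPM against 153 and 51.1 CPM. P4hb, a disulfide isomerase outside the members and also chosen after its values were seen, was not high in treated 1. It had 756 and 604 CPM against 644 and 777 CPM, the same order of libraries as Hspa5.

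The most abundant markers of the other lists had overlapping groups except Cnmd of the cartilage list. Cnmd had 56.8 and 43.9 CPM against 60.9 and 115 CPM, opposite to most of its list. Of 11 cartilage markers, 8 had both treated libraries lower (against 13.1% of all genes) and 1 higher (against 16.5%). The median log2 fold change was −1.30. At an unadjusted p under 0.05 in edgeR 6 were lower (against 1.10% of all genes). DESeq2 called 6 lower (against 0.327%) and edgeR called 0. Acan, the gene of aggrecan, chosen after its values were seen, had 56.3 and 75.1 against 7.35 and 10.6 CPM. Cd79a, a B cell gene, had 2.56 and 35.1 against 47.4 and 21.1 CPM, and Krt4, a squamous keratin, had 4757 and 952 against 1800 and 8.92 CPM. Ltf, the mucosal gland gene of lactoferrin, had 2342 and 9299 against 13432 and 5800 CPM, and Acta1, the skeletal muscle actin, had 9275 and 12831 against 16958 and 5737 CPM. Pth, the parathyroid hormone gene, had 3345 and 1127 against 3540 and 2529 CPM, Col3a1 of fibroblasts 250 and 310 against 187 and 438 CPM, and Cfd of adipocytes 402 and 295 against 140 and 490 CPM.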
